A study of Mus musculus with 12 samples.

Results

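The growth hormone (GH) and insulin-like growth factor (IGF) axis of the liver was read through 10 genes, chosen by gene name from a table of 54532 genes: Ghr, Stat5b, Socs2, Cish, Igf1, Igfals, Igfbp1, Igfbp2, Igfbp3 and Igfbp4. All 10 were in the table and all 10 passed the filter on low counts that left 14686 genes for testing. The RNA came from livers of wild-type mice, taken 9 days into treatment with an adenovirus, in 4 groups of 3 libraries. ANG8 mice received a virus to raise ANGPTL8, a secreted protein that takes part in inhibiting lipoprotein lipase, and Ad_GFP mice a control virus with green fluorescent protein. The shANG8 mice received a virus with a hairpin against Angptl8, and shCtrl mice a virus with a control hairpin. Every group, controls included, thus carried an adenovirus, and the series title gives the mice as chow-fed. The labels give no strain, sex, age, virus dose, feeding state or hour of collection, and neither the promoter nor the species of the ANGPTL8 transgene, so counts of Angptl8 may not measure it.

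GH is released by the pituitary in pulses. It binds its receptor on hepatocytes, and the kinase JAK2 then phosphorylates STAT5B, which enters the nucleus and turns on Igf1, Igfals, Socs2, Cish and many sex-biased liver genes. The liver makes most of the IGF1 in blood, where IGF1 travels in complexes with IGF binding proteins and the acid-labile subunit encoded by Igfals. Feeding and insulin also act on this axis, since a fasted liver resists GH and raises Igfbp1.

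Libraries held 12537083 to 15144312 counts. Levels are given as CPM, reads of a gene relative to all reads of the library, scaled with edgeR's TMM factors, and a gene was called at an edgeR adjusted p under 0.05 over all 14686 genes. The labels do not say that libraries of a group came from separate mice, so the p-values rest on a spread between samples that may be technical. Angptl8 had 165, 314 and 172 CPM in ANG8 libraries, against 96.8, 80.4 and 90.0 CPM in Ad_GFP libraries. It had 144, 143 and 79.2 CPM in shANG8 libraries, against 339.9, 391 and 167 CPM in shCtrl libraries. The ANG8 libraries were all above the Ad_GFP libraries (log2 fold change 1.28, SE 0.33, edgeR adjusted p = 0.0201), and the shANG8 libraries all below the shCtrl libraries, where the difference was not called (-1.29, SE 0.33, adjusted p = 0.235). The call of the rise was lost in 5 of 15 alternatives: in an edgeR fit that included the mitochondrial share (adjusted p = 0.0973), without ANG8 replicate 2 and without any 1 Ad_GFP library, and the lower level under knockdown was called in 4. Between the control viruses every shCtrl library lay above every Ad_GFP library in Angptl8, with means of 299 ± 117 CPM in shCtrl and 89.1 ± 8.24 CPM in Ad_GFP (SD, n = 3 each; log2 fold change 1.75, SE 0.33, edgeR adjusted p = 0.338). This was not called, except in 4 of 15 alternatives, but the value was larger than that under the ANG8 virus, and the shCtrl mean was above the ANG8 mean of 217 ± 84.0 CPM. Mitochondrial genes took 39.0%, 43.8% and 22.5% of the counts in ANG8 libraries, against 19.8%, 34.9% and 26.4% in Ad_GFP libraries, and 19.3% to 24.2% in the other 2 groups. The Y-linked gene Ddx3y had 430 to 791 counts in every library and Xist, the RNA of the inactive X chromosome, 0 to 6.

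The 10 genes lie on 6 chromosomes of the mouse build GRCm38. Ghr is at chromosome 15, 3317760 to 3583492 (minus strand), Igf1 at chromosome 10, 87858265 to 87937042 (plus), and Socs2 at chromosome 10, 95385362 to 95417180 (minus). Igfals is at chromosome 17, 24878770 to 24882008 (plus), Cish at chromosome 9, 107296026 to 107302784 (plus), and Igfbp2 at chromosome 1, 72824503 to 72852474 (plus). Chromosome 11 holds Stat5b at 100780731 to 100850724 (minus), Igfbp1 at 7197782 to 7202546 (plus), Igfbp3 at 7206086 to 7213923 (minus) and Igfbp4 at 99041244 to 99054392 (plus). All are protein-coding, and the counts cover the exons of the whole gene. Igfbp1 and Igfbp3 lie 3539 bases apart, and Igfbp2 lies 5457 bases from Igfbp5, another IGF binding protein gene. The strand setting of the counting is not given in the sources used here, so reads of an antisense partner could be counted with a gene. The partner of Igf1, Igf1os, had 44 to 272 counts, against at least 7796 for Igf1.

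Promoter windows of RefSeq (build GRCm38.p6, 250 bases before to 50 after a start site) were found for 9 of the 10 genes, 14 windows in all. They are shown for Cish and Igfals, which carried matches to the STAT5 motif, for Igfbp1, which carried a match to the insulin response motif, and for Igfbp2, which changed most and had no match. Capitals mark the matches, read 5′ to 3′ on the plus strand, the strand of all 4 genes.
Cish, chr9:107296409-107296708: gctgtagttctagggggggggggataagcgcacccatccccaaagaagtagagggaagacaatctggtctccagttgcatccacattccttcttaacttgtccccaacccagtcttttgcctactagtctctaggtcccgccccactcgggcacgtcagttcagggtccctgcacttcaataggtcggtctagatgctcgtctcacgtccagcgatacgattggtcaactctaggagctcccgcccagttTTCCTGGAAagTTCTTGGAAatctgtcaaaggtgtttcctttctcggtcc
Igfals, chr17:24877981-24878280: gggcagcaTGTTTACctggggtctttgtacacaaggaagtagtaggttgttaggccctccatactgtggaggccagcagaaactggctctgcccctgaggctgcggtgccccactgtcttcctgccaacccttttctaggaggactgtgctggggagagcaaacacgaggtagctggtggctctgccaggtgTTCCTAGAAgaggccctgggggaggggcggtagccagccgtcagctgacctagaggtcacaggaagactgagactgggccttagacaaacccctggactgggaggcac
Igfbp1, chr11:7197537-7197836: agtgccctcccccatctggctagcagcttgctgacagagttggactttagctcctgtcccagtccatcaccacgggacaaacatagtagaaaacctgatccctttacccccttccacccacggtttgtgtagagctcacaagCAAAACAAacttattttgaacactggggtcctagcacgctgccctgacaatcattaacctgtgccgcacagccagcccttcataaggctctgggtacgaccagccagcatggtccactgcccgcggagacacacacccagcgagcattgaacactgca
Igfbp2, chr1:72824230-72824529: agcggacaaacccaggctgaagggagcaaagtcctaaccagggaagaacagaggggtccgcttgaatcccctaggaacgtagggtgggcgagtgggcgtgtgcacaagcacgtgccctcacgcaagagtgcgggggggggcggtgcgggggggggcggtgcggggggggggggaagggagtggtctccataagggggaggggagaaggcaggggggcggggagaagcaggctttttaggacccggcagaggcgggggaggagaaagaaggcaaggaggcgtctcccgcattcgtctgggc

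The letters searched on both strands were TTCNNNGAA for STAT5, GTAAACA for FOXO factors and CAAAACAA for the insulin response. The Cish window held 2 STAT5 matches, TTCCTGGAA beginning at the start site and TTCTTGGAA beginning 11 bases after it. The Igfals window printed above held TTCCTAGAA beginning 58 bases before its start site, and TGTTTAC, the reverse complement of the FOXO letters, 242 bases before it. A second Igfals window, at chr17:24877594-24877893, held TTCTCAGAA 236 bases before its start site. The Igfbp1 window held CAAAACAA 108 bases before the start site. None of the other 10 windows held these letters. They include every window of Ghr, Igf1, Stat5b, Igfbp2, Igfbp3 and Igfbp4. They also include the remaining Igfals window, chr17:24878497-24878796, which is the Igfals window that spans the start of the gene as given above. Of 32851 windows of all genes, 8.3% held at least 1 STAT5 match, 0.457% held 2 or more, 3.65% held a FOXO match and 2.51% an insulin response match. These matches describe the letters in the windows only.

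Under the ANG8 virus 5 of the 10 genes fell: the receptor gene Ghr, the hormone gene Igf1, the carrier gene Igfals and the binding protein genes Igfbp2 and Igfbp4. None rose, and Stat5b, Socs2, Cish, Igfbp1 and Igfbp3 were not called. Among all tested genes 6.39% were called lower, 7.08% higher and 13.5% in either direction. In all 5 genes each ANG8 library lay below each Ad_GFP library, an arrangement found for 16.2% of tested genes. The median log2 fold change was -0.69 over the 10 genes and -0.0002 over all tested genes. In bulk liver, fewer cells of a type and less RNA per cell cannot be told apart.

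**Figure D1:**
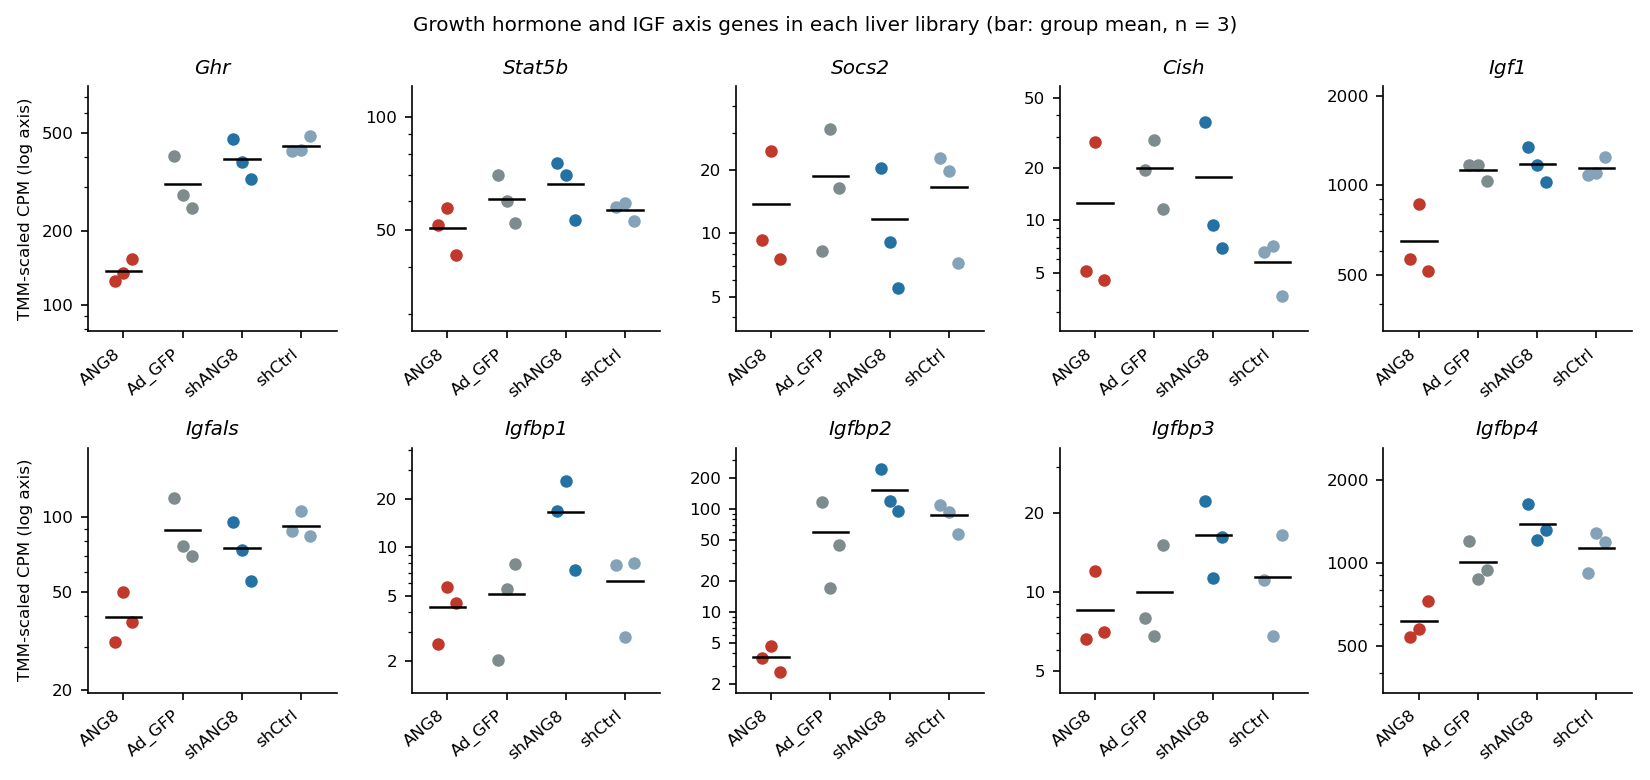
TMM-scaled CPM (log axis) of the 10 genes in each of the 12 libraries, in the order ANG8, Ad_GFP, shANG8 and shCtrl, with a bar at the mean of the 3 libraries. The ANG8 points lie below the Ad_GFP points without overlap for Ghr, Igf1, Igfals, Igfbp2 and Igfbp4, with Igfbp2 between 2.61 and 4.67 CPM in ANG8 libraries.

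Ghr encodes the GH receptor. It had 125, 135 and 154 CPM in ANG8 libraries, against 403, 278 and 248 CPM in Ad_GFP libraries. In the knockdown arm it had 471, 382 and 324 CPM in shANG8 libraries, against 420.1, 426 and 485 CPM in shCtrl libraries. The ANG8 libraries were the lowest of all 12, and the other 3 groups overlapped except for shCtrl and Ad_GFP, where every shCtrl library was higher. The means were 138 ± 14.8 CPM in ANG8 and 309.7 ± 82.5 CPM in Ad_GFP (SD, n = 3 each), a 2.25-fold lower level in ANG8 (log2 fold change -1.17, SE 0.20, edgeR adjusted p = 0.00164). This call held under all 15 alternatives.

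Stat5b encodes the transcription factor that carries most of the GH signal in hepatocytes. It had 51.6, 57.5 and 43.1 CPM in ANG8 libraries, against 70.0, 59.7 and 52.3 CPM in Ad_GFP libraries. It had 75.6, 70.0 and 53.2 CPM in shANG8 libraries, against 57.8, 59.1 and 52.8 CPM in shCtrl libraries. All 4 groups overlapped, and all 12 values lay between 43.1 and 75.6 CPM. Its log2 fold change under the ANG8 virus was -0.26 (SE 0.17, edgeR adjusted p = 0.364), and 1.96 SE on either side ran over -0.60 to 0.08. Stat5b also had the smallest spread between replicates of the 10 genes, a biological coefficient of variation of 17.0%, against a median of 22.3% over all tested genes.

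Socs2 and Cish encode SOCS2 and CIS, proteins made in response to STAT5 that restrain the receptor. Socs2 had 9.27, 24.5 and 7.58 CPM in ANG8 libraries, against 8.22, 31.2 and 16.4 CPM in Ad_GFP libraries. It had 20.3, 9.13 and 5.48 CPM in shANG8 libraries, against 22.8, 19.8 and 7.22 CPM in shCtrl libraries. The groups overlapped throughout. The highest library of a group exceeded the lowest by 3.23-fold in ANG8, 3.79-fold in Ad_GFP, 3.70-fold in shANG8 and 3.16-fold in shCtrl. Cish had 5.14, 28.2 and 4.55 CPM in ANG8 libraries, against 19.4, 28.7 and 11.6 CPM in Ad_GFP libraries. It had 36.5, 9.44 and 6.96 CPM in shANG8 libraries, against 6.58, 7.11 and 3.72 CPM in shCtrl libraries. In ANG8 and in shANG8, 1 library stood several-fold above the other two, and all shCtrl libraries lay below all Ad_GFP libraries. Under the ANG8 virus the log2 fold change was -0.44 for Socs2 (SE 0.70, edgeR adjusted p = 0.744) and -0.67 for Cish (SE 0.84, adjusted p = 0.669). With 1.96 SE on either side these covered -1.81 to 0.93 for Socs2 and -2.32 to 0.98 for Cish, so neither a fall as large as that of Ghr nor no change lies outside them.

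The biological coefficient of variation between replicates was 57.3% for Socs2 and 68.3% for Cish, above 94.0% and 97.7% of tested genes. Ghr, Igf1 and Igfbp4 had 19.6% to 19.7%. Within a group, Socs2 and Cish shared their highest library in 3 of the 4 groups (ANG8 replicate 2, Ad_GFP replicate 2 and shANG8 replicate 1) and their lowest library in 3 of the 4 (replicate 3 of ANG8, shANG8 and shCtrl).

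**Figure D2:**
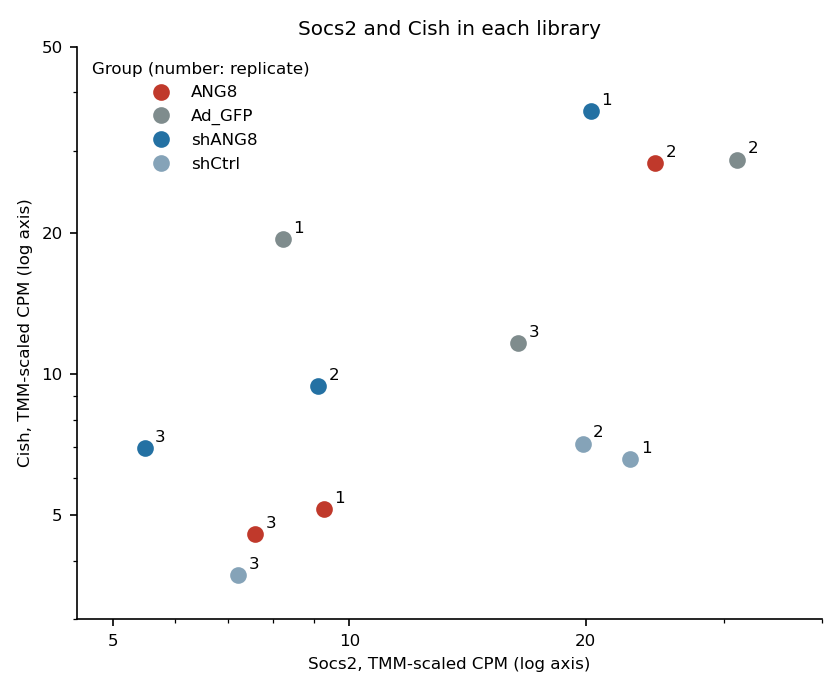
Socs2 level (x axis) against Cish level (y axis), both in TMM-scaled CPM on log axes, for the 12 libraries, with the replicate number beside each point. The highest Cish points, 28.2 CPM in ANG8 replicate 2, 28.7 CPM in Ad_GFP replicate 2 and 36.5 CPM in shANG8 replicate 1, lie far from the other libraries of ANG8 and shANG8, and the shCtrl points lie between 3.72 and 7.11 CPM of Cish.

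In 2 of the 3 groups where Socs2 and Cish shared their highest library, that library was also highest in most other genes of the axis. ANG8 replicate 2 held the highest value of its group for 8 of the 10 genes, and 35.6% of all tested genes were highest there. In shANG8, replicate 1 held the highest value for 9 of the 10 genes, against 33.2% of all tested genes. Ad_GFP replicate 2 held it for 3 of the 10 genes, Socs2, Cish and Igf1, against 37.1% of all tested genes. ANG8 replicate 2 also had the highest mitochondrial share, 43.8%, whereas shANG8 replicate 1, at 22.7%, lay within the range of its group, and the part of that share was not tested.

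Igf1 encodes the circulating growth factor itself and was among the most abundant liver transcripts, above 99.4% of tested genes in CPM. It had 565, 863 and 516 CPM in ANG8 libraries, against 1167, 1171 and 1036 CPM in Ad_GFP libraries. It had 1349, 1172 and 1022 CPM in shANG8 libraries, against 1081, 1097 and 1242 CPM in shCtrl libraries. The 9 libraries outside ANG8 stayed between 1022 and 1349 CPM and overlapped from group to group, and all ANG8 libraries lay below them. The mean was 648 ± 188 CPM in ANG8 and 1125 ± 76.8 CPM in Ad_GFP (SD, n = 3 each), a fall by 0.80 on the log2 scale (SE 0.21, edgeR adjusted p = 0.0181). The call was lost without ANG8 replicate 1 (adjusted p = 0.0929), ANG8 replicate 3 (0.0544), Ad_GFP replicate 1 (0.0554) or replicate 2 of that group (0.0585), and over all 15 alternatives the adjusted p ran over 0.000946 to 0.0929.

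Igfals encodes the acid-labile subunit, which hepatocytes secrete and which keeps IGF1 and its binding protein in the blood. It had 31.2, 50.1 and 37.7 CPM in ANG8 libraries, against 119.7, 76.3 and 70.0 CPM in Ad_GFP libraries. It had 96.0, 73.6 and 55.4 CPM in shANG8 libraries, against 87.8, 106 and 83.8 CPM in shCtrl libraries. The ANG8 libraries were the lowest of all 12, and the other 3 groups overlapped. The means were 39.7 ± 9.59 CPM in ANG8 and 88.7 ± 27.0 CPM in Ad_GFP (SD, n = 3 each), and the level was 2.24-fold lower in ANG8 (log2 fold change -1.16, SE 0.24, edgeR adjusted p = 0.00483). This call held under all 15 alternatives.

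Igfbp2 encodes a binding protein that holds IGFs in blood and tissue and whose transcript is made by hepatocytes. It had 3.55, 4.67 and 2.61 CPM in ANG8 libraries, against 118, 17.2 and 44.2 CPM in Ad_GFP libraries. It had 247, 118 and 95.4 CPM in shANG8 libraries, against 109.9, 92.2 and 57.4 CPM in shCtrl libraries. The ANG8 values were low and close together, while the Ad_GFP values were spread over 6.86-fold and overlapped those of shANG8 and shCtrl. Counts were 49, 57 and 43 reads in ANG8 libraries, against 1862, 232 and 657 reads in Ad_GFP libraries. Its level was 16.7-fold lower in ANG8 (log2 fold change -4.06, SE 0.75, edgeR adjusted p = 0.00914). No other of the 10 genes had so low a log2 fold change. The lowest Ad_GFP value, 17.2 CPM, came from the Ad_GFP library with the highest mitochondrial share, 34.9%. In ANG8 the order was the reverse. Replicate 3, with the lowest share of that group (22.5%), had the lowest value, 2.61 CPM. Replicate 2, with the highest share (43.8%), had the highest value, 4.67 CPM. In a fit that included the mitochondrial share the log2 fold change was -3.48 and was not called (adjusted p = 0.0741); the other 14 alternatives kept the call. Without Ad_GFP replicate 1, its highest control value, the log2 fold change was -3.10.

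Igfbp4 encodes a binding protein that holds IGFs away from their receptor until a protease cleaves it, and was the most abundant of the 4 binding protein transcripts in every library. It had 540.4, 576 and 729 CPM in ANG8 libraries, against 1194, 873 and 945 CPM in Ad_GFP libraries. It had 1635, 1208 and 1318 CPM in shANG8 libraries, against 921, 1277 and 1191 CPM in shCtrl libraries. Again the ANG8 libraries were the lowest of all 12, and each of the other groups overlapped its neighbour in order of mean level, Ad_GFP, shCtrl and shANG8. The means were 615 ± 100.2 CPM in ANG8 and 1004 ± 168 CPM in Ad_GFP (SD, n = 3 each), a fall by 0.71 on the log2 scale (SE 0.21, edgeR adjusted p = 0.0316). It was called in 10 of 15 alternatives, the fewest of the 5 genes. The call was lost in a fit that included the mitochondrial share (-0.53, adjusted p = 0.0749) and without ANG8 replicate 1 (adjusted p = 0.137), ANG8 replicate 2 (0.111), Ad_GFP replicate 1 (0.137) or Ad_GFP replicate 3 (0.0538).

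Igfbp1 and Igfbp3, neighbours on chromosome 11, were read from few counts, 32 to 329 per library for Igfbp1 and 91 to 293 for Igfbp3. Igfbp1, which rises in fasting and is held down by insulin, had 2.54, 5.74 and 4.55 CPM in ANG8 libraries, against 2.02, 5.55 and 7.94 CPM in Ad_GFP libraries. It had 16.7, 25.9 and 7.24 CPM in shANG8 libraries, against 7.80, 2.80 and 8.06 CPM in shCtrl libraries. The ANG8 values lay within those of Ad_GFP, and 2 of the 3 shANG8 values lay above every other library. Igfbp3 encodes the main IGF1 carrier in blood, which in rat liver is made largely outside hepatocytes. It had 6.59, 12 and 7.04 CPM in ANG8 libraries, against 7.97, 6.81 and 15.1 CPM in Ad_GFP libraries, and 22.2, 11.2 and 16.2 CPM in shANG8 libraries, against 11.1, 6.76 and 16.4 CPM in shCtrl libraries. Its groups overlapped in both arms. Under the ANG8 virus the log2 fold change was -0.27 for Igfbp1 (SE 0.59, edgeR adjusted p = 0.812) and -0.23 for Igfbp3 (SE 0.38, adjusted p = 0.745).

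**Figure D3:**
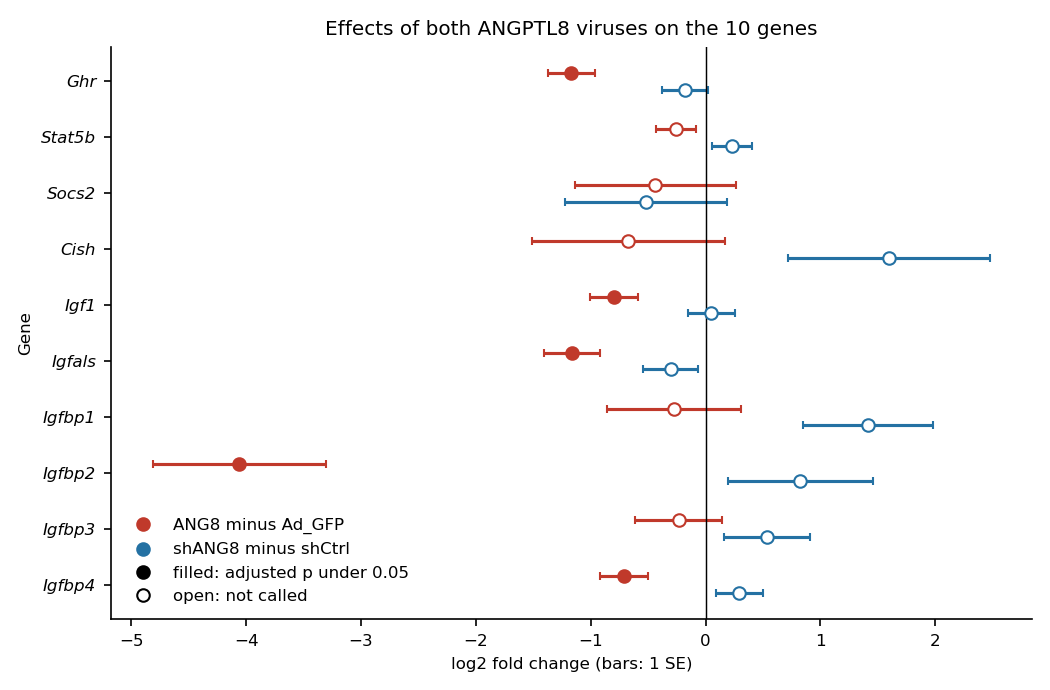
Log2 fold change of each of the 10 genes for ANG8 minus Ad_GFP and for shANG8 minus shCtrl, with bars of 1 SE and filled points at an edgeR adjusted p under 0.05. The 5 filled points all belong to the ANG8 virus and lie between -4.06 (Igfbp2) and -0.71 (Igfbp4), and no knockdown point is filled.

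Divided by exon length, so that genes can be compared, the binding protein transcripts differed widely in level. In Ad_GFP libraries Igfbp4 had 227 ± 38.1 CPM per kilobase, Igfbp2 32.3 ± 28.2, Igfbp1 3.39 ± 1.95 and Igfbp3 3.19 ± 1.44 (SD, n = 3). Igfbp2 made up 1.5%, 1.8% and 0.822% of the summed length-scaled level of these 4 genes in ANG8 libraries, against 18.9%, 4.37% and 9.65% in Ad_GFP libraries. It made up 25.6%, 17.9% and 14.3% in shANG8 libraries, against 21.5%, 14.6% and 9.98% in shCtrl libraries. Every ANG8 library thus lay below every other library in the Igfbp2 share. Igfbp4 made up 95.6%, 92.8% and 96.1% in ANG8 libraries, against 80.0%, 92.9% and 86.3% in Ad_GFP libraries, and these shares overlapped. The summed level was 128, 141 and 172 CPM per kilobase in ANG8 libraries, against 338, 213 and 248 CPM per kilobase in Ad_GFP libraries. Igf1 divided by this sum was 0.445, 0.620 and 0.303 in ANG8 libraries, against 0.349, 0.555 and 0.422 in Ad_GFP libraries. The ratio overlapped between the groups, with Igf1 and the sum both lower in every ANG8 library than in any Ad_GFP library. Other binding proteins, which this sum leaves out, were read among the wider pathway genes.

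**Figure D4:**
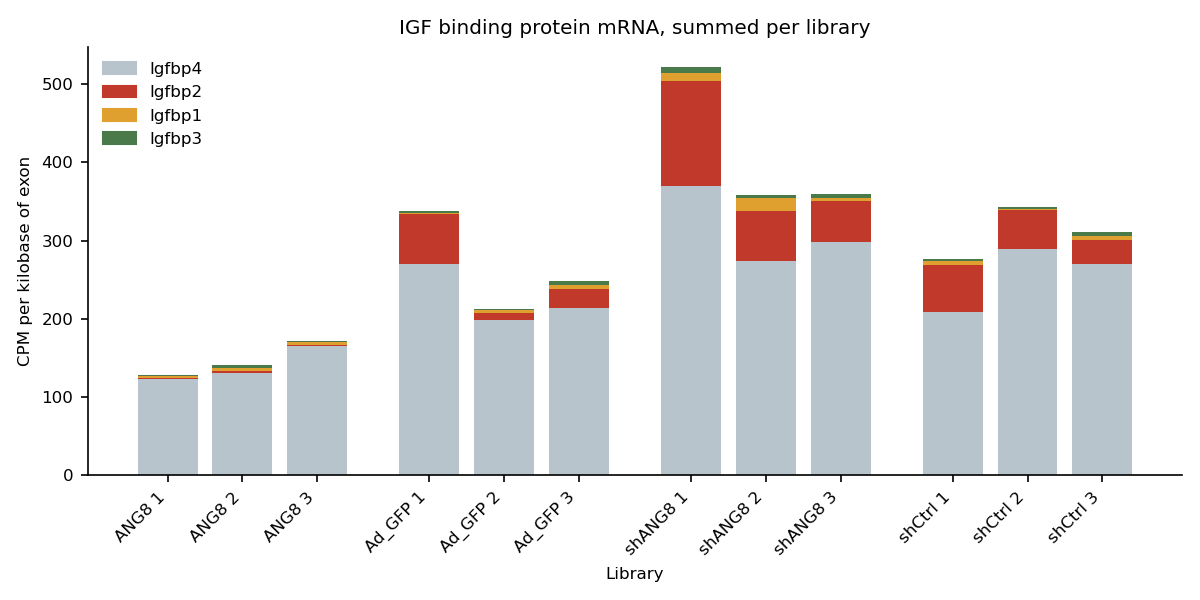
Summed level of Igfbp4, Igfbp2, Igfbp1 and Igfbp3 in CPM per kilobase of exon, stacked from bottom to top, for each of the 12 libraries. The Igfbp2 part is hardly visible in the ANG8 libraries, at 0.822% to 1.8% of the sum, and takes 4.37% to 18.9% in the Ad_GFP libraries.

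The order of the other length-scaled levels in Ad_GFP libraries was Igf1 (114 ± 7.76 CPM per kilobase), Igfals (42.0 ± 12.8), Ghr (34.2 ± 9.12), Stat5b (11 ± 1.61), Cish (3.10 ± 1.33) and Socs2 (1.95 ± 1.22). In ANG8 libraries Igf1 had 65.4 ± 19.0, Igfals 18.8 ± 4.54, Ghr 15.2 ± 1.63, Stat5b 9.16 ± 1.31, Cish 1.97 ± 2.10 and Socs2 1.45 ± 0.978 CPM per kilobase (SD, n = 3). The order was the same, and the pairs Igfals with Ghr and Cish with Socs2 differed by less than the larger of their SDs in both groups.

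The genes whose pattern over the 12 libraries was most like that of Ghr were Rgn (regucalcin, Pearson r = 0.989 on log2 CPM), Agxt, a glyoxylate-detoxifying aminotransferase (0.988), and Serpina1a, an alpha-1-antitrypsin gene with near-identical copies whose counts are uncertain (0.984). For Igf1 they included Car1, a carbonic anhydrase (0.977), and Pcmtd2 (0.971). For Igfbp2 they were Amdhd1, an enzyme of histidine breakdown (0.985), the kinase Hipk1 (0.980) and Tmprss6, a hepatocyte protease that restrains hepcidin (0.973). After the group means were removed, r was 0.899 to 0.918 for the 3 genes of Ghr, 0.941 and 0.894 for Car1 and Pcmtd2 and 0.835 to 0.864 for those of Igfbp2. These values describe libraries that share depth, scaling and group. They were picked as the highest among tested genes above a minimum mean level, with symbols of predicted genes left out.

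Around the receptor, 4 of 22 tested genes of GH receptor and JAK-STAT signalling rose under the ANG8 virus, against 7.08% of all tested genes, none fell, and the median log2 fold change was 0.05. Socs1, an inhibitor of JAK kinases that interferons also induce, had 11.3, 18.3 and 11.9 CPM in ANG8 libraries, against 8.60, 4.22 and 4.98 CPM in Ad_GFP libraries, and rose by 1.21 on the log2 scale (SE 0.33, edgeR adjusted p = 0.0236). The phosphatase genes Ptpn6, which is strong in blood cells, and Ptpn1 rose by 0.77 (SE 0.21) and 0.64 (SE 0.15). Stat5a, the close relative and neighbour of Stat5b, averaged 18.5 ± 4.61 CPM in ANG8 and 13.3 ± 1.18 CPM in Ad_GFP (SD, n = 3 each) and was not called (0.47, adjusted p = 0.162). Over 15 alternatives Ptpn1 was called in 15, Ptpn6 in 13, and Socs1 in 12, and the list median took either sign (-0.03 to 0.14). The count of 4 became 2 without ANG8 replicate 1, ANG8 replicate 2 or Ad_GFP replicate 3, and 1 without Ad_GFP replicate 2.

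Of 22 further IGF genes (ligands, receptors, proteases and other binding proteins), 11 passed the filter. Of these 2 fell, against 6.39% of all tested genes, and none rose, with a median of 0.21. Igfbp5, which neighbours Igfbp2 on chromosome 1, had 0.724, 1.48 and 1.03 CPM in ANG8 libraries, against 5.31, 9.85 and 5.92 CPM in Ad_GFP libraries. It had 1.52, 4.09 and 2.95 CPM in shANG8 libraries, against 2.99, 2.66 and 4.86 CPM in shCtrl libraries. These rest on 10 to 18 reads in ANG8 libraries, against 84 to 133 reads in Ad_GFP libraries, and Igfbp5 fell by 2.70 on the log2 scale (SE 0.44, edgeR adjusted p = 0.000929). Irs2, a docking protein of the insulin and IGF1 receptors, had 1.52, 2.95 and 2.85 CPM in ANG8 libraries, against 12.7, 8.29 and 3.63 CPM in Ad_GFP libraries, a fall by 1.75 (SE 0.47, adjusted p = 0.0259). Insr, the insulin receptor, lay lower in every ANG8 library, at 77.7 ± 9.44 CPM in ANG8 and 110.0 ± 18.7 CPM in Ad_GFP, without being called (-0.50, adjusted p = 0.0691). Grb14, an adaptor that inhibits the insulin receptor, and Ctsd, a lysosomal protease, had log2 fold changes of -0.59 and 0.49 and were not called either. Igfbp5 was called in all 15 alternatives and Irs2 in 8. In the list 1 gene was called with voom and without ANG8 replicate 1, 2 or 3 or Ad_GFP replicate 1 or 2, while the replicate block gave 5 calls, 4 lower and 1 higher, and the list median took either sign (-0.06 to 0.25).

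Of 21 liver genes that depend on the male pattern of GH pulses, 13 fell under the ANG8 virus and none rose, with a median of -1.35. Among all tested genes 6.39% were called lower. The organic anion carrier Slco1a1 had 29.0, 36.2 and 19.4 CPM in ANG8 libraries, against 251, 99.1 and 113 CPM in Ad_GFP libraries (log2 fold change -2.45, SE 0.44, edgeR adjusted p = 0.00427). C8b, a chain of complement C8, fell by 2.05 (SE 0.34), the glucuronosyltransferase Ugt2b1 by 1.38 (SE 0.23) and the steroid hydroxylase Cyp2d9 by 1.14 (SE 0.18) on the log2 scale. Cyp4a12b fell by 1.42 (SE 0.20) and Susd4, a complement regulator, by 1.54 (SE 0.40); Cyp2d9, Ugt2b1 and Cyp4a12b have near-identical relatives, so their counts are uncertain. Among genes with the female pattern, edgeR called 0 of 13 in either direction, with 5 at an unadjusted p under 0.05 (27.7% of all tested genes had one), 3 called by DESeq2 and with the replicate block, 2 without Ad_GFP replicate 1, 1 by voom, without the filter and with the mitochondrial share in the fit, and a median of 0.27 that took either sign over the alternatives (-0.25 to 0.84). Cyp17a1, a steroid hydroxylase, averaged 13.2 ± 4.29 CPM in ANG8 and 37.1 ± 19.3 CPM in Ad_GFP (-1.48, adjusted p = 0.0609). Slco1a1, C8b, Ugt2b1, Cyp2d9 and Cyp4a12b were called in all 15 alternatives and Susd4 in 10, and 8 male-pattern genes were called without ANG8 replicate 2.

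Of 15 transcription factors of GH-regulated liver genes, 1 rose and none fell, with a median of -0.39. This count is near the share of all tested genes called higher, 7.08%. The glucocorticoid receptor gene Nr3c1 (-0.42) and the liver factors Foxa1 (-0.44) and Foxa2 (-0.46) were not called. Of 20 fasting and insulin-responsive genes, none rose, and the median was -0.57. Those that fell were 7, against 6.39% of all tested genes, with Irs2, counted above among the IGF genes, again 1 of them. The 7 included genes that insulin raises, such as Srebf1, the regulator of lipid synthesis (-0.94, SE 0.19), and genes that fasting raises. Of the fasting genes, Pck1 and G6pc of glucose production fell by 1.30 (SE 0.34) and by 2.31 (SE 0.57), Ppargc1a, their coactivator, fell by 1.48 (SE 0.38), and the factor Creb3l3 fell by 0.58 (SE 0.16). Srebf1 was called in all 15 alternatives, Pck1 in 12 and G6pc, Ppargc1a and Creb3l3 in 11. The 7 calls of the fasting and insulin list became 1 without ANG8 replicate 1, 4 without ANG8 replicate 2, and 2 without Ad_GFP replicate 1 or 2. Among the transcription factors the single rise became 0 calls without replicate 1 of either group or Ad_GFP replicate 3, and 3 falls with no rise without ANG8 replicate 2 or with the mitochondrial share in the fit. It became 1 rise and 1 fall with the replicate block, without Ad_GFP replicate 2 and with no low-count filter, so the direction of this list depended on these settings.

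Cytokines make the liver resistant to GH in inflammation. Of 18 cytokine and acute phase genes 3 fell under the ANG8 virus, against 6.39% of all tested genes. None rose, and the median was -0.35. Those that fell were Il1r1, a receptor of interleukin 1 (-0.89, SE 0.21), Crp, the C-reactive protein (-0.90, SE 0.25), and Hamp, the iron hormone hepcidin (-0.84, SE 0.25). The acute phase genes Saa1 and Saa2, near-identical copies of each other, averaged 33.2 ± 15.1 and 15.1 ± 7.36 CPM in ANG8, against 74.2 ± 34.4 and 33.1 ± 13.8 CPM in Ad_GFP, and were not called (adjusted p = 0.0732 and 0.082). Uncalled genes of the list went in both directions. Ccl2 (1.46, edgeR adjusted p = 0.0965) and Lcn2 (1.29, adjusted p = 0.168) were higher in ANG8. Il1r1 was called in all 15 alternatives, Crp in 11 and Hamp in 10, and the list had 1 call without ANG8 replicate 1 or Ad_GFP replicate 1, 6 without ANG8 replicate 3, 5 with DESeq2, 5 with voom, and 6 without the filter on low counts. All of these were falls except 1 rise without the filter.

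Markers of the cell types of the liver moved with these changes. For comparison, 6.39% of all tested genes were called lower under the ANG8 virus and 7.08% higher. Of 15 hepatocyte markers 8 fell and none rose, with a median of -0.96, and their summed level was 26634 to 53901 CPM in ANG8 libraries, against 48234 to 71327 CPM in Ad_GFP libraries. Among 15 markers of macrophages and Kupffer cells 11 rose and none fell, with a median of 1.10, and their sum was 1158 to 1485 CPM in ANG8 libraries, against 472 to 667 CPM in Ad_GFP libraries. The 11 rises became 7 without ANG8 replicate 3 or Ad_GFP replicate 1. Of 12 T and NK cell markers 6 rose and 1 fell, with a median of 0.94. EdgeR called 0 of 13 endothelial, 14 stellate, 6 cholangiocyte and 6 B cell markers, with medians of 0.23, 0.07, 0.66 and -0.46; at an unadjusted p under 0.05 there were 1, 1, 2 and 0, DESeq2 called 1, 0, 0 and 0, and voom 1, 0, 0 and 0. Over the alternatives at most 1 endothelial, 1 stellate and 1 cholangiocyte marker was called, and 0 B cell markers. No marker of these lists was at 0 in all libraries. Ghr, Igf1, Igfals, Igfbp2 and Igfbp4 fell in the same libraries in which hepatocyte markers fell and macrophage markers rose, and the part of these cell types in the changes was not tested.

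**Figure D5:**
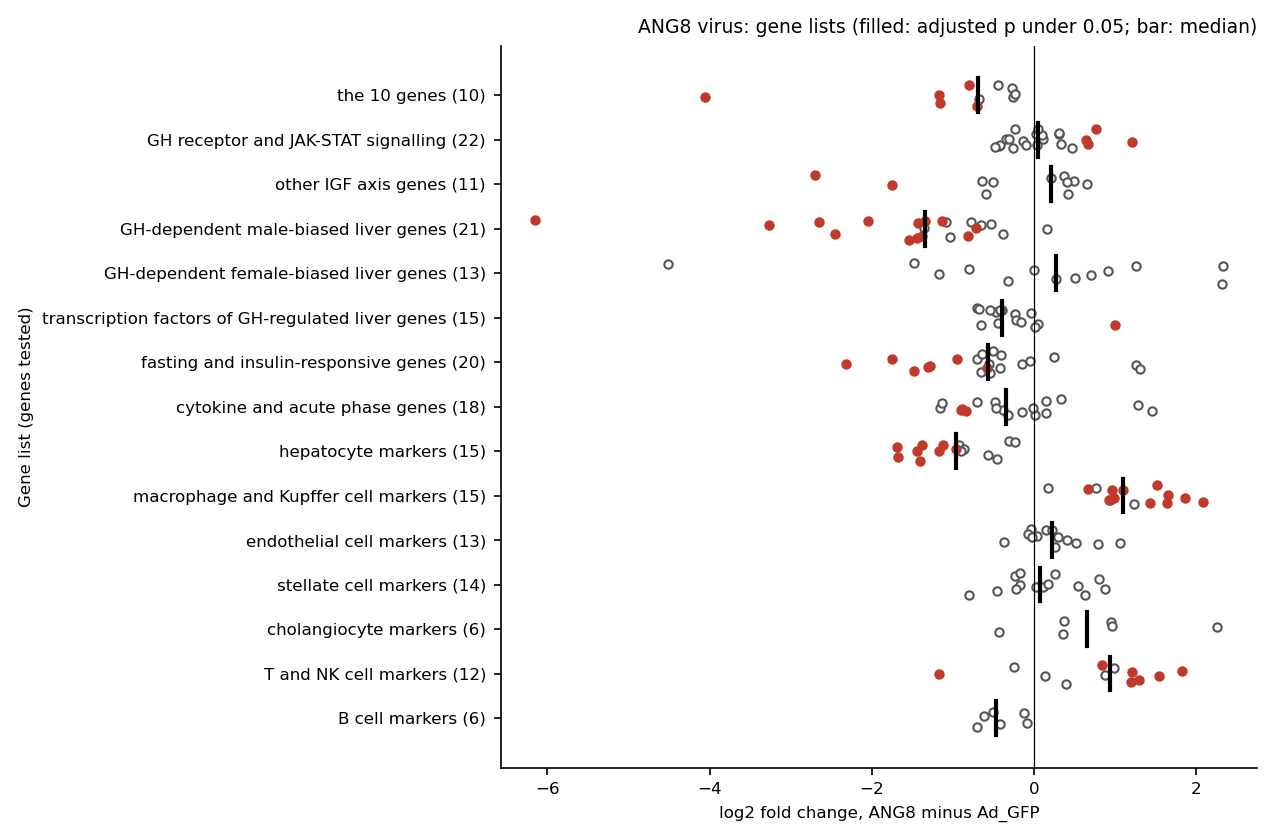
Log2 fold change, ANG8 minus Ad_GFP, of every tested gene of the 10-gene axis, of 7 lists of related pathway genes and of 7 lists of cell type markers, with filled points at an edgeR adjusted p under 0.05 and a bar at each list's median. The medians of the axis (-0.69), the male-biased genes (-1.35) and the hepatocyte markers (-0.96) lie left of 0, and those of the macrophage (1.10) and T and NK cell markers (0.94) right of it.

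The knockdown comparison asked whether the same genes differ when the virus carries a hairpin against Angptl8. EdgeR called 0 of the 10 genes, as did DESeq2 and voom, and 1 of them, Igfbp1, had an unadjusted p under 0.05. Among all tested genes 0.191% were called, and 7.93% had an unadjusted p under 0.05. The median log2 fold change was 0.26 over the 10 genes and 0.0079 over all genes. Igfbp1 averaged 16.6 ± 9.32 CPM in shANG8 and 6.22 ± 2.96 CPM in shCtrl (log2 fold change 1.41, SE 0.56, edgeR adjusted p = 0.560), with 2 of 3 shANG8 libraries above every shCtrl library. Cish averaged 17.6 ± 16.4 CPM in shANG8 and 5.80 ± 1.82 CPM in shCtrl (1.6, SE 0.88, adjusted p = 0.712). Without shANG8 replicate 1, the library with 36.5 CPM of Cish, this was 0.47 (SE 0.80). Igfbp2 averaged 153 ± 81.5 CPM in shANG8 and 86.5 ± 26.7 CPM in shCtrl (0.83, SE 0.63, adjusted p = 0.819).

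For the receptor, Ghr had a log2 fold change of -0.18 (SE 0.20), and 1.96 SE on either side covered -0.57 to 0.22. The hormone gene Igf1 had 0.05 (SE 0.21), covering -0.36 to 0.46. The other values were -0.30 for Igfals, 0.23 for Stat5b, -0.52 for Socs2, 0.54 for Igfbp3 and 0.30 for Igfbp4. Of the 119 tested genes in the 7 pathway lists, edgeR called 0 in this arm, with 17 at an unadjusted p under 0.05, where 1164 of all tested genes (7.93%) had one, 3 called by DESeq2 and 0 by voom. The 21 male-pattern genes held 6 of the 17 and all 3 DESeq2 calls, with a median of -0.33. Among these, Cyp4a12a had log2 fold changes of -0.83 in this arm and -0.72 under the ANG8 virus. C6 had -0.77 and -0.81. Susd4 went the other way in this arm (1.0).

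Whether the effects of the viruses differ was tested as the ANG8 effect minus the shANG8 effect. Ghr, Igfbp2 and Igfbp4 were called lower, 3 of the 10 genes, where 2.9% of all tested genes were called lower and 6.62% in either direction. Ghr had effects of -1.17 for ANG8 and -0.18 for shANG8, a difference of -0.99 (SE 0.29, edgeR adjusted p = 0.0464). Igfbp2 had -4.06 for ANG8 and 0.83 for shANG8, a difference of -4.89 (SE 0.98, adjusted p = 0.0219). Igfbp4 had -0.71 for ANG8 and 0.30 for shANG8, a difference of -1.0 (SE 0.29, adjusted p = 0.0487). Without Ad_GFP replicate 1 the Igfbp2 difference was -3.93. For Igf1 (-0.85, SE 0.29, adjusted p = 0.0949) and Igfals (-0.86, SE 0.34, adjusted p = 0.140) the fall under the ANG8 virus was not shown to differ from the knockdown effect in the edgeR fit. Igf1 was called lower in 3 of 20 alternatives, with DESeq2 (adjusted p = 0.0301), with the mitochondrial share in the edgeR fit (-1.09, adjusted p = 0.0203) and without ANG8 replicate 2 (-1.09, adjusted p = 0.0363), and Igfals in 1, without the filter on low counts. The calls of Ghr, Igfbp2 and Igfbp4 lie near the threshold: over 20 alternatives Igfbp2 was called in 14, Ghr in 7 and Igfbp4 in 5, and 0 of the 10 genes were called without ANG8 replicate 1 or without any 1 shCtrl library.

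In the pathway lists the same test called 3 of the 119 tested genes higher, Socs1 and Ptpn6 among them, and 11 lower, against 3.72% and 2.9% of all tested genes. Socs1 had effects of 1.21 for ANG8 and -1.07 for shANG8, a difference of 2.28 (SE 0.48, edgeR adjusted p = 0.0109). Among the lower ones were Igfbp5 (-2.41, SE 0.59), Slco1a1 (-2.54, SE 0.60), Susd4 (-2.54, SE 0.54), Srebf1 (-1.14, SE 0.26) and Pck1 (-2.06, SE 0.47). Socs1, Susd4 and Srebf1 were called in all 20 alternatives, Pck1 in 17, Igfbp5 in 14 and Slco1a1 in 12.

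The control viruses were compared as shCtrl minus Ad_GFP. EdgeR called 0 of the 10 genes and 0 of all genes (0%), with 1 of the 10, Ghr, and 1286 of all genes at an unadjusted p under 0.05. DESeq2 called 0 of the 10 genes and 46 of all genes, and voom 0 of the 10 and 0 of all genes. Ghr averaged 444 ± 35.7 CPM in shCtrl and 309.7 ± 82.5 CPM in Ad_GFP (0.52, SE 0.20, edgeR adjusted p = 0.475), and every shCtrl library was above every Ad_GFP library. Cish averaged 5.80 ± 1.82 CPM in shCtrl and 19.9 ± 8.56 CPM in Ad_GFP (-1.77, SE 0.88, adjusted p = 0.601), with every shCtrl library below every Ad_GFP library. Igf1 (0.02) and Igfals (0.06) had log2 fold changes near 0 between the control viruses, and the remaining 6 genes lay between -0.16 (Socs2) and 0.53 (Igfbp2).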

How the data were processed

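The deposited matrix of the authors gives raw counts of liver RNA, as whole reads without any scaling, over 54532 genes and 12 libraries. Per the labels' protocols, Trizol was used for extraction and a NEBNext Ultra kit for the libraries. CASAVA 1.8.2, featureCounts 1.5.0-p3 and mm9 are named in the submitters' processing notes. Of 54409 gene identifiers found in GENCODE vM21, an annotation of GRCm38, 98.3% had the same coordinates in the deposited table, among them 9 of the 10 genes reported (Igfals differed), so coordinates are given as GRCm38. For the aligner, the annotation release and the strand setting, the entry is: not given in the sources used here.

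Counts were tested with edgeR 4.0.16 (R 4.3.3): filterByExpr with a minimum count of 10, TMM scaling, and a robust quasi-likelihood fit to all 12 libraries, with Benjamini-Hochberg adjustment over 14686 genes. SE is the absolute log2 fold change divided by the square root of F. Levels for correlations were log2 CPM with a prior count of 2. The filter kept at least 99.85% of the counts of each library. Replicates of a group differed by more than counting noise (chi-square per gene 14.5 to 150). The procedure was tested on simulated data.

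Alternatives were DESeq2 1.42.0, limma 3.58.1 voom, other scalings, no filter, mitochondrial genes left out, the mitochondrial share as a covariate, a replicate block, a fit of the compared groups alone and leaving out each library. The 10 genes and the pathway and marker lists together held 231 symbols, 230 of them in the table. The named genes were the 10 genes, Angptl8, up to 5 genes of each pathway list with the smallest p under overexpression, those called in another ANGPTL8 comparison and the 3 genes most like Ghr, Igf1 and Igfbp2. The 10 genes and the lists were chosen with earlier results of these data known. Some genes picked by the rule for named genes are not reported here.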

Additional observations from a re-analysis of the deposited data

Results flagged for a closer look

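For 3 genes the effect of the ANG8 virus differed from that of the shANG8 virus by a test of the difference itself in edgeR. Ghr, with log2 effects of -1.17 for ANG8 and -0.18 for shANG8, differed by -0.99. Igfbp2, with effects of -4.06 and 0.83, differed by -4.89. Igfbp4, with effects of -0.71 and 0.30, differed by -1.0. The direction was the same in all 20 alternatives for these 3 genes, while the calls of Ghr and Igfbp4 held in 7 and 5 of them.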

How the results depend on the processing

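Under overexpression 5 of the 10 genes were called with every other whole-data alternative, except 3 with the mitochondrial share as a covariate and 3 to 4 without single libraries (995 to 1684 of all genes, 1978 in the main analysis). Under knockdown, 0 of the 10 genes were called throughout, and all-gene calls were 28, against 132 without the filter on low counts, 102 with DESeq2, 47 with the mitochondrial covariate and 21 to 39 without single libraries. In the difference, 3 of the 10 genes became 1 with upper quartile scaling and 1 with mitochondrial genes left out (Igfbp2), 1 with the mitochondrial covariate (Igf1, which is none of the 3) and 0 to 2 without single libraries, and the 972 genes in all became 1510 without the filter, 1541 with DESeq2 and 473 to 1227 without single libraries. DESeq2 called Igf1 besides the 3, and the fit without the filter called Igfals besides them. Voom called Igfbp2 and Igfbp4 but not Ghr, and edgeR with DESeq2 size factors called Ghr and Igfbp2 but not Igfbp4. Between control viruses, 0 of all genes became 96 without the filter, 46 with DESeq2 and 0 to 10 without single libraries, with 0 of the 10 genes throughout. The cause was not tested. Whether replicate numbers pair the samples was not settled. Deviations of same-numbered libraries correlated at -0.07 to 0.19. In each pair of groups compared, replicates 2 and 3 correlated best with the library of the same number, and replicate 1 did not. With the replicate block edgeR called 5 of the 10 genes under overexpression, 0 under knockdown and 3 in the difference, and 55, 1550 and 5 of all genes under knockdown, in the difference and between control viruses. Signs turned only for values that were not called. Socs2 was -0.73 (mitochondrial covariate) and -0.080 (replicate block) in the difference and 0.33 between control viruses (mitochondrial covariate), and Igf1 -0.0022 there with upper quartile scaling. Without single libraries, log2 fold changes ran over -1.13 to 0.15 for Socs2, -0.66 to 0.18 for Igfbp1 and -0.54 to 0.20 for Igfbp3 under overexpression, -0.076 to 0.14 for Igf1 under knockdown, and -0.61 to 0.77 for Socs2 in the difference. Between control viruses they ran over -0.035 to 0.071 for Igf1, -0.079 to 0.34 for Igfals, -0.51 to 0.45 for Socs2, -0.19 to 0.019 for Stat5b, -0.12 to 0.73 for Igfbp1 and -0.15 to 0.63 for Igfbp3.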
